A study of Mus musculus with 2 samples.

Results

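Mast cells and basophils of ulcerated mouse skin were selected by their transcripts and described in 2 single-cell RNA libraries, 1 from a wild-type and 1 from a whole-body Has2 overexpression animal or preparation. A cell barcode was a member when at least 2 of the genes Cpa3, Mcpt8, Mcpt4, Cma1, Tpsb2, Gata2 and Ms4a2 had a unique molecular identifier (UMI, 1 captured transcript), the 7 genes summed to at least 4 UMIs, and Csf1r, Pecam1 and Pdgfra had none. These values chose the cells, so the 7 genes are described below and carry no test. The rule found 57 members among the 31252 of 31621 deposited barcodes that were kept (200 genes or more, mitochondrial UMIs no higher than 15%). Members without UMIs of the mast cell proteases Mcpt4, Cma1 and Tpsb2 but with Mcpt8 are called Mcpt8-positive, and the converse are called mast-positive. There were 17 Mcpt8-positive members, 36 mast-positive members and 4 with UMIs of both kinds.

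Both libraries came from lesional skin in a model of ulcerative dermatitis that imitates scratching, made by stripping the skin with tape 40 to 50 times a day for 15 days, a treatment that wild-type and Has2 mice shared; the label begins mid-sentence, so an earlier step may be missing from it. Neither the promoter of the Has2 transgene nor the age, sex or number of animals is given, and the skin was dissociated with dispase, accutase and collagenase before capture with a droplet kit that reads the 5′ end of transcripts. Each genotype had 1 library, so no difference between genotypes could be tested: every interval below is a 95% interval for counting error within a library, and PCR, dissociation and animal-to-animal variation are not in it. Genotype, animal, dissociation and capture cannot be told apart.

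Mast cells live in the skin, carry histamine, serotonin and heparin-bound proteases in their granules, and are activated through the IgE receptor and through Mrgpr receptors that sense basic peptides. Basophils circulate, enter inflamed skin, share histamine and the IgE receptor with mast cells, and are known in mice for the protease mMCP-8, encoded by Mcpt8, and for interleukin-4. GATA transcription factors are needed for both lineages. Has2 encodes a plasma membrane enzyme that makes hyaluronan, for which CD44 is a receptor.

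The promoters of 4 genes used to choose the members are shown because GATA sites are what the lineage genes of both cell types are known to share. They are RefSeq sequences of the build GRCm38.p6, written 5′ to 3′ on the gene's strand from 250 bases before to 50 bases after the start. Capitals mark a GATA motif on either strand, searched as AGATAA and AGATAG and as TGATAA and TGATAG; the capitals TTATCT are the first of these read on the opposite strand.
Mcpt8 at chr14:56085148-56085447, minus strand: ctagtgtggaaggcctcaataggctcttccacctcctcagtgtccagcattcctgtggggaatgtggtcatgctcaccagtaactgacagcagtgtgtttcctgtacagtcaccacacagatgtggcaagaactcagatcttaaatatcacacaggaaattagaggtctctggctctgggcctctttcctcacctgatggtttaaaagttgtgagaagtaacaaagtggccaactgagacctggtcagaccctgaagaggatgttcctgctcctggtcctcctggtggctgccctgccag
Mcpt4 at chr14:56062261-56062560, minus strand: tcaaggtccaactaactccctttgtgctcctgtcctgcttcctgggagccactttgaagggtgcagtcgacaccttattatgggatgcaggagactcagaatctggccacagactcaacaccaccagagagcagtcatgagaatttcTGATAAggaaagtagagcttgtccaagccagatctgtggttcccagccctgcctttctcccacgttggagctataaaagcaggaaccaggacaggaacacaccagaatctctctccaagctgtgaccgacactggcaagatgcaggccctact
Cpa3 at chr3:20242132-20242431, minus strand: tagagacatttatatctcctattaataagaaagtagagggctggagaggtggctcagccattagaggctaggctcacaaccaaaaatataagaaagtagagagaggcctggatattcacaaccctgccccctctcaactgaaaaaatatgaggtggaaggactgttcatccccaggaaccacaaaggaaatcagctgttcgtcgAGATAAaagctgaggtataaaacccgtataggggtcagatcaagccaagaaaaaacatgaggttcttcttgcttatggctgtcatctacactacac
Ms4a2 at chr19:11623670-11623969, minus strand: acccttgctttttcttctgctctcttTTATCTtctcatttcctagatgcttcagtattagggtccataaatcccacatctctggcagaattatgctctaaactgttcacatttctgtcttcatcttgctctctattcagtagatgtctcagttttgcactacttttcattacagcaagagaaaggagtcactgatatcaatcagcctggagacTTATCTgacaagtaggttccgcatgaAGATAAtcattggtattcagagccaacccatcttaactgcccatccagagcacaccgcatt

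Ms4a2, which encodes the beta chain of the IgE receptor, held 3 matches, the chymase gene Mcpt4 and the carboxypeptidase gene Cpa3 held 1 each, and Mcpt8 held 0 in this window. For comparison, 29.8% of 32851 promoters of the same length held at least 1 match and 1.76% held at least 3. A match is only a run of letters, and the libraries hold no measure of binding.

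The whole libraries differed little in size: the wild-type library held 143875454 UMIs over 16999 barcodes and the other 134917708 over 14622, with medians of 4348 and 4485 UMIs per barcode kept. Has2 itself was at 71.5 CPM (UMIs scaled to a common total) over the kept wild-type barcodes and 85.8 CPM over the others (ratio 1.20, interval 1.17 to 1.23), but in fibroblast-type barcodes with Pdgfra it was 188 and 153 CPM, a ratio of 0.815. Has2 thus gave no single answer on the genotype, and the second library is named by its label throughout. Of the members' 79152 and 253378 UMIs, 0 were from Has2. The libraries shared 79 barcode sequences, and 0 of them were members.

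Mast cells took a larger share of the library labelled Has2-transgenic than of wild-type, and the interval for Mcpt8-positive cells included no difference. Mast-positive members were 4 of 16837 kept barcodes in wild-type (0.0238%, exact binomial interval 0.00647 to 0.0608) and 32 of 14415 in the library labelled Has2-transgenic (0.222%, 0.152 to 0.313), a ratio of 9.34 (exact conditional interval 3.31 to 36.4). Mcpt8-positive members were 11 (0.0653%, 0.0326 to 0.117) and 6 (0.0416%, 0.0153 to 0.0906), a ratio of 0.637 (0.193 to 1.88). For all members together the counts were 18 and 39, or 0.107% and 0.271%, a ratio of 2.53 (1.41 to 4.70). Mast-positive cells were thus 22.2% of wild-type members and 82.1% of members in the other library, or 38.9% and 84.6% with the cells that carried both kinds of protease.

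**Figure D1:**
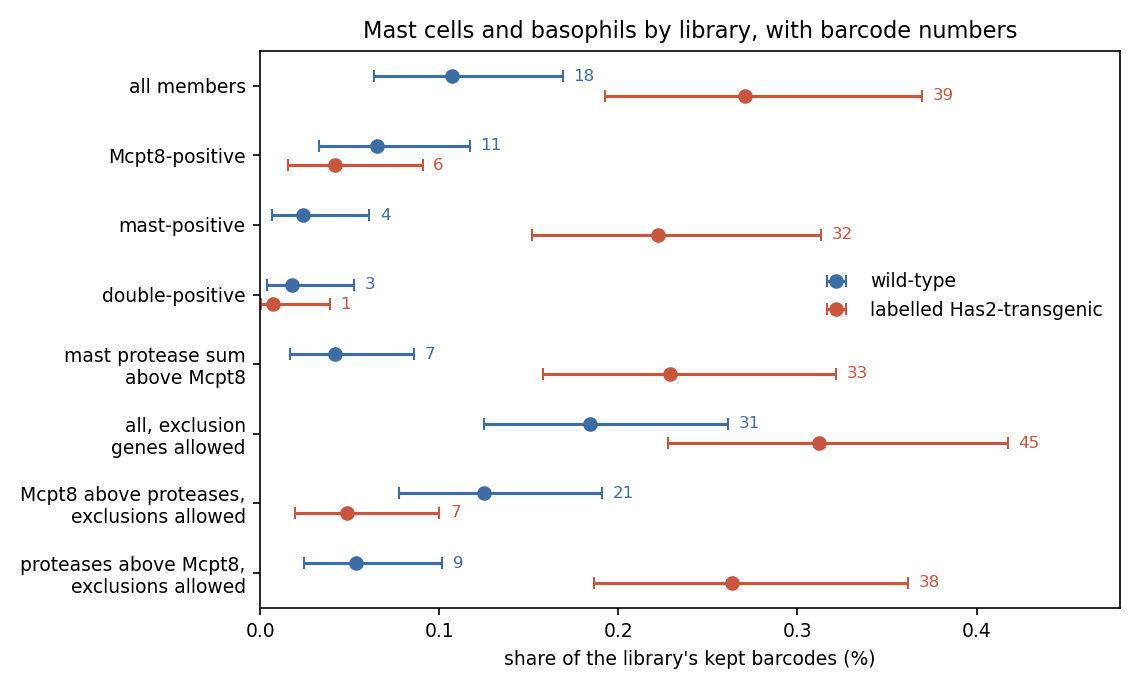
Share of kept barcodes (%, horizontal axis) that were members, Mcpt8-positive, mast-positive or mast by the larger sum of UMIs, for the wild-type library and the library labelled Has2-transgenic; bars are exact 95% binomial intervals and numbers are barcodes. The mast-positive intervals of the 2 libraries (4 and 32 barcodes) do not meet, and those of Mcpt8-positive members (11 and 6) overlap.

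The 4 members with both kinds of protease were mast cells by amount. They held 1 or 2 UMIs of Mcpt8 against 686 to 2122 UMIs of Mcpt4, Cma1 and Tpsb2, and the 3 of wild-type were among the deepest members of their library, with a median of 10374 UMIs. Assigned by the larger of the sums, mast cells numbered 7 and 33, a ratio of 5.51 (2.40 to 14.7). Because the 4 wild-type mast-positive cells were shallow (median 1366.5 UMIs, against 7854.5 in the library labelled Has2-transgenic), values are given for the larger sum, and for both definitions where a result turns on the choice.

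**Figure D2:**
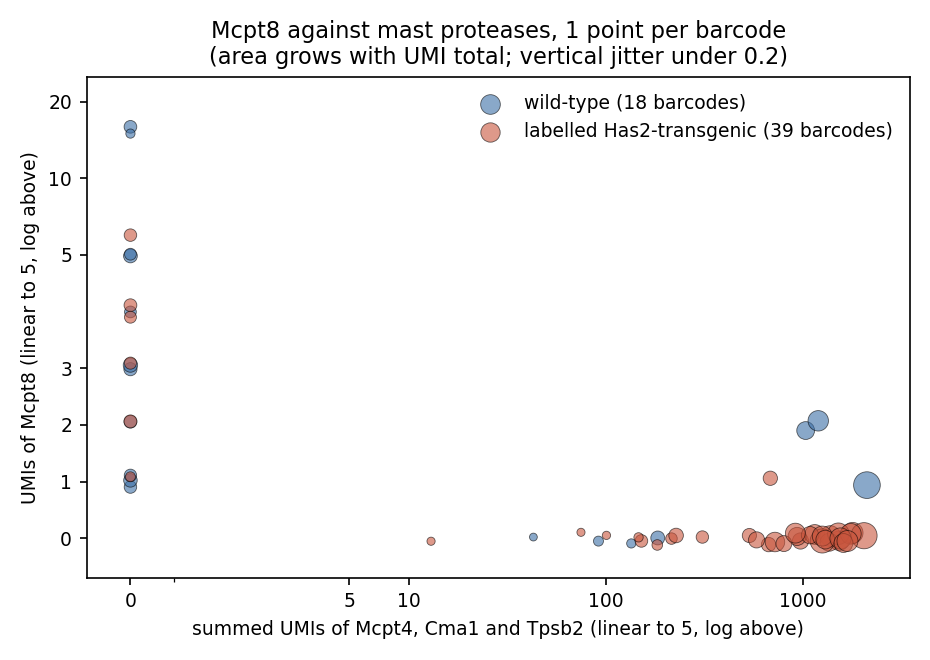
UMIs of Mcpt8 (vertical axis) against summed UMIs of Mcpt4, Cma1 and Tpsb2 (horizontal axis), both linear to 5 and logarithmic above, 1 point per member with area growing with its UMI total. Mcpt8-positive members lie at 0 on the horizontal axis, and the 4 members with both kinds lie at 686 to 2122 protease UMIs with 1 or 2 UMIs of Mcpt8.

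The exclusion genes removed more Mcpt8-type barcodes from wild-type than from the other library. Without them the rule took 13 further wild-type barcodes, 10 of them Mcpt8-type, and 6 in the library labelled Has2-transgenic, 1 of them Mcpt8-type; 10 and 5 of these were left out for Pecam1, an adhesion molecule of endothelium, platelets and leukocytes. With these barcodes kept, Mcpt8-type cells were 21 and 7, a ratio of 0.389 (0.140 to 0.951), and mast cells by the larger sum were 9 and 38, a ratio of 4.93 (2.34 to 11.6). The Mcpt8-type interval then lay below 1, where that of the rule itself did not. Near the threshold, 4 wild-type and 3 other members had only 4 or 5 summed UMIs, and just outside it 0 barcodes of either library had 3 UMIs over at least 2 genes. Also outside, 5 wild-type barcodes and 1 other had a UMI of Mcpt8, and 2 and 1 had at least 4 UMIs of only 1 gene. With at least 8 summed UMIs, Mcpt8-positive members fell from 11 and 6 to 5 and 3, and with at least 3 genes to 4 and 3. Mast-positive members stayed at 4 and 32 under both.

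Of the mast cell markers that the rule did not use, Kit, Tpsab1 and Mrgprb1 bore out the mast cell label. Slc18a2 and Hdc of the same list did not separate the subclasses in that direction. Slc18a2 was higher in Mcpt8-positive cells and Hdc was similar, as given below. The basophil markers were mixed for the Mcpt8-positive cells. In mast cells by the larger sum, the stem cell factor receptor Kit had UMIs in 4 of 7 wild-type cells (570 CPM) and 30 of 33 in the other library (673 CPM), the tryptase Tpsab1 in 6 of 7 (3622 CPM) and 32 of 33 (4016 CPM), and the peptide receptor Mrgprb1 in 6 of 7 (2392 CPM) and 32 of 33 (2336 CPM). In Mcpt8-positive members Kit, Tpsab1 and Mrgprb1 had 0 UMIs of 35258 and 17081, which allows up to 85.1 and 176 CPM. Transcripts of the basophil list in these cells were Cd200r3, an activating receptor, at 681 and 644 CPM, and Cyp11a1, a mitochondrial enzyme of steroid synthesis, at 2042 and 2927 CPM. Mast cells by the larger sum carried both, Cd200r3 at 866 and 618 CPM and Cyp11a1 at 1754 and 1096 CPM, so these do not separate the subclasses. The tetraspanin Cd9, which was not on the basophil list, was at 4027 and 4157 CPM in Mcpt8-positive cells. That was at least 9.91-fold above mast-positive cells in wild-type and 19.3-fold (13.2 to 28.3) in the other library. Prss34, a protease gene often used for basophils, had only 3 UMIs in wild-type and 1 in the other library, and Fcer1a, the IgE-binding chain, 4 and 6. Both were at least 4-fold higher in mast-positive cells, as given below. For Prss34 this rested in wild-type on 3 UMIs in 1 mast-positive cell, and it did not hold with mast cells by the larger sum. Itga2, also on the basophil list, had 4 and 1 UMIs, against 5 and 86 in mast-positive cells. Ccl3 and Osm, of the same list, were higher in Mcpt8-positive cells.

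Neutrophil and macrophage markers were near 0 in Mcpt8-positive members. The 10 neutrophil markers summed to 9 UMIs in wild-type and 1 in the other library, with Csf3r, Mmp9 and Ly6g at 0 in both, and the macrophage markers summed to 3 and 3. The list for innate lymphoid and NK cells was not near 0, at 52 UMIs in 7 of 11 wild-type cells (1475 CPM) and 17 UMIs in 5 of 6 others (995 CPM), against 502 and 411 CPM in Csf1r-positive barcodes. Il7r gave 25 and 12 of these UMIs and Areg 20 and 1, while Ncr1, Klrb1c, Gata3 and Eomes had 0. The invariant chain gene Cd74, listed with dendritic cells, had 5 and 14 UMIs, and Itga2b, listed with platelets, 17 and 5. Their part in the results was not tested. Mast-positive members held Apoe, a lipid carrier listed here with macrophages, in 32 of 32 cells of the library labelled Has2-transgenic (577 UMIs), while C1qa, C1qb and Adgre1 had 0. In the same group 98.9% of 358 neutrophil-marker UMIs lay in 1 cell of 17725 UMIs and 3646 genes, which held 243 UMIs of S100a8 beside 760 of Mcpt4. That cell also held the most Il4 of any mast cell, and values without it are given with Il4 below.

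Both subclasses carried Hdc, and they differed in chemokines. Hdc, which makes histamine from histidine, was at 6750 CPM in Mcpt8-positive and 7718 CPM in mast-positive cells of wild-type, and at 5796 and 5120 CPM in the other library. The ratios of Mcpt8-positive over mast-positive cells were 0.875 (0.653 to 1.19) and 1.13 (0.913 to 1.39), and the cells' ranges overlapped. After thinning every cell to 1000 UMIs, Hdc had a UMI in 10 of 11 and 6 of 6 Mcpt8-positive cells and in 28 of 29 mast-positive cells of the library labelled Has2-transgenic. It was not restricted to them: at the same depth 72.9% and 79.3% of neutrophil-type barcodes with Csf3r had one, against 4.95% and 3.98% of macrophage-type barcodes with Csf1r.

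Other genes of amine handling divided the subclasses. Slc18a2, of the mast cell list, loads amines into granules. It was at 2780 CPM in Mcpt8-positive and 271 CPM in mast-positive cells of wild-type, and at 3103 and 686 CPM in the other library. The ratios were 10.3 (2.77 to 85.9) and 4.52 (3.25 to 6.21), but no wild-type mast-positive cell held more than 1 UMI of it. Tph1, the first enzyme of serotonin synthesis, went the opposite way: 0 UMIs in the Mcpt8-positive cells of either library against 1219 and 2183 CPM in mast-positive cells, at least 14.3-fold and 12.4-fold higher.

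Of 2110 genes with at least 20 UMIs over the 4 groups of cells, 105 (4.98%) were at least 4-fold higher in Mcpt8-positive than in mast-positive members in both libraries and 306 (14.5%) at least 4-fold lower. These are folds without a test, counted with 0.5 added UMIs on unequal totals. The totals were 35258 UMIs in Mcpt8-positive and 7385 in mast-positive cells of wild-type, and 17081 and 231834 in the other library. A gene with 0 UMIs in both wild-type groups thus counts as at least 4-fold lower there. With 0 UMIs in both groups of the other library it counts as at least 4-fold higher there. Some calls therefore rest on 1 library alone, and their number was not determined. With mast cells by the larger sum, 129 of 2328 genes (5.54%) and 254 (10.9%) passed. Of the 14 genes of the protease list 9 were measured, of which 2 were past the fold upward and 7 downward, a count that the choice of subclasses by Mcpt8, Mcpt4, Cma1 and Tpsb2 fixes for those 4 genes. Beside Mcpt8 the upward gene was Gzmb, encoding granzyme B, at 3120 and 5503 CPM in Mcpt8-positive cells, at least 7.68-fold higher in wild-type and 116-fold higher in the other library, although 1 wild-type cell held 59% of its UMIs. Downward were Mcpt4, Cma1, Tpsb2, Tpsab1, Tpsg1, Cpa3 and Prss34. With mast cells by the larger sum, 6 of 10 measured proteases were past the fold downward, and Prss34 was not among them.

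The subclasses carried different chemokines. Of 8 measured chemokines, 5 were past the fold upward in Mcpt8-positive cells (Ccl3, Ccl4, Ccl6, Ccl9 and Cxcl2) and 2 downward (Ccl2 and Ccl7), with a median log2 ratio of 5.80 against -0.79 over all genes measured. Ccl4, an inflammatory chemokine, had 1803 and 530 UMIs in Mcpt8-positive cells and 0 in mast-positive cells of either library, so it was at least 126-fold and 2398-fold higher. Ccl6 was at 10125 and 16392 CPM against 0 and 5 UMIs, at least 24.9-fold higher in wild-type and 760-fold (322 to 2359) in the other library. Ccl7 and Ccl2, monocyte chemoattractants, were carried by mast cells: Ccl7 had 144 and 2098 UMIs in mast-positive cells and 3 and 0 in Mcpt8-positive cells, ratios of 229 (76.9 to 1124) and at least 51.5. Ccl2 had 52 and 1163 UMIs against 2 and 0, ratios of 124 (32.7 to 1052) and at least 28.6.

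Il1b and Acod1, genes of the inflammatory response, were also higher in Mcpt8-positive cells. Il1b, encoding interleukin-1 beta, had 1523 and 293 UMIs against 0 and 12 in mast-positive cells, at least 106-fold higher in wild-type and 331-fold (187 to 649) in the other library, where all 12 mast-positive UMIs lay in the 1 cell high in S100a8. Acod1, which makes itaconate, was at 11345 and 13816 CPM against 0 UMIs and 51.8 CPM, at least 27.9-fold higher in wild-type and 267-fold (150 to 524) in the other library. Ifitm1, a membrane protein induced by interferon, had UMIs in every Mcpt8-positive cell: 5265 to 23591 CPM over the wild-type cells and 4632 to 28602 CPM over the others, against 1 and 11 UMIs in mast-positive cells. Serpinb2, a plasminogen activator inhibitor, and Hgf, hepatocyte growth factor, completed the 10 genes of largest fold with Ccl3, Ccl4, Ccl6, Ccl9 and Gzmb.

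On the mast cell side the 10 genes of largest fold outside the rule were Ccl7, Tpsab1, Ctla2a, Ccl2, Mrgprb1, Tph1, Sla, Ext1, Ly6a and Gnai1. Ext1, part of the polymerase that extends heparan sulfate and heparin chains, was at 4739 and 1643 CPM in mast-positive cells against 2 and 0 UMIs in Mcpt8-positive cells, ratios of 83.5 (21.5 to 717) and at least 9.36. The serglycin and heparin list had 4 of 6 measured genes past the fold downward and 0 upward, but Srgn, the granule proteoglycan core, was at 14323 and 13699 CPM in Mcpt8-positive cells against 5958 and 10007 CPM. Fcer1a was 16.7-fold (5.25 to 69.7) and 13.6-fold (6.25 to 37.3) higher in mast-positive cells. Of the 14 measured genes of IgE receptor signalling 2 were past the fold downward and 0 upward.

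The other lists divided less between Mcpt8-positive and mast-positive cells, counted with 0.5 added UMIs. Of 13 measured cytokines 3 were past the fold upward (Il1b, Osm and Areg) and 1 downward (Hbegf). Hbegf had 0 UMIs in both wild-type groups, so its call there came only from the added counts. Areg had 1 UMI in the Mcpt8-positive cells of the library labelled Has2-transgenic and 0 in its mast-positive cells. Of 11 genes of NF-kB feedback 4 were past the fold upward (Tnfaip3, Traf1, Birc3 and Ier3) and 0 downward. Of 11 lineage transcription factors Cebpb was past it upward, and Mitf and Bhlhe40 downward, 1 against 2. Of 6 genes of amine handling 1 was past it upward (Slc18a2) and 2 downward (Tph1 and Maob). Of 6 of eicosanoid synthesis Ptgs2 passed upward and Hpgds, a prostaglandin D synthase gene, downward. Ptgs2 had 0 UMIs in both groups of the library labelled Has2-transgenic, so its call there came only from the added counts. Of 7 G protein-coupled receptors 2 passed upward (C5ar1 and Cxcr4) and 3 downward (Mrgprb1, Mrgprb2 and Mrgprx2), of 14 surface genes 3 and 2, and of 8 growth factor and alarmin receptors Il18rap upward and Kit downward. In the wild-type mast-positive cells Kit and Mrgprb2 had 1 UMI each, Bhlhe40 and Hpgds 2 each and Mitf 3. The downward calls of these genes thus rest on few UMIs there. Of 10 oxidative stress genes 1 passed each way, of 13 immediate early genes 2 upward and 1 downward, of 3 interferon response genes 0 upward and 1 downward, and 0 cell cycle genes were measured.

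The hyaluronan list had 3 measured genes, of which 2 were past the fold downward in Mcpt8-positive cells and 0 upward. Cd44 was at 1896 and 2571 CPM in mast-positive cells, 6.08-fold and 11.0-fold above the Mcpt8-positive cells of the same library. Between libraries, in mast cells by the larger sum, Cd44 had 2597 and 2548 CPM (0.981, 0.802 to 1.21).

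**Figure D3:**
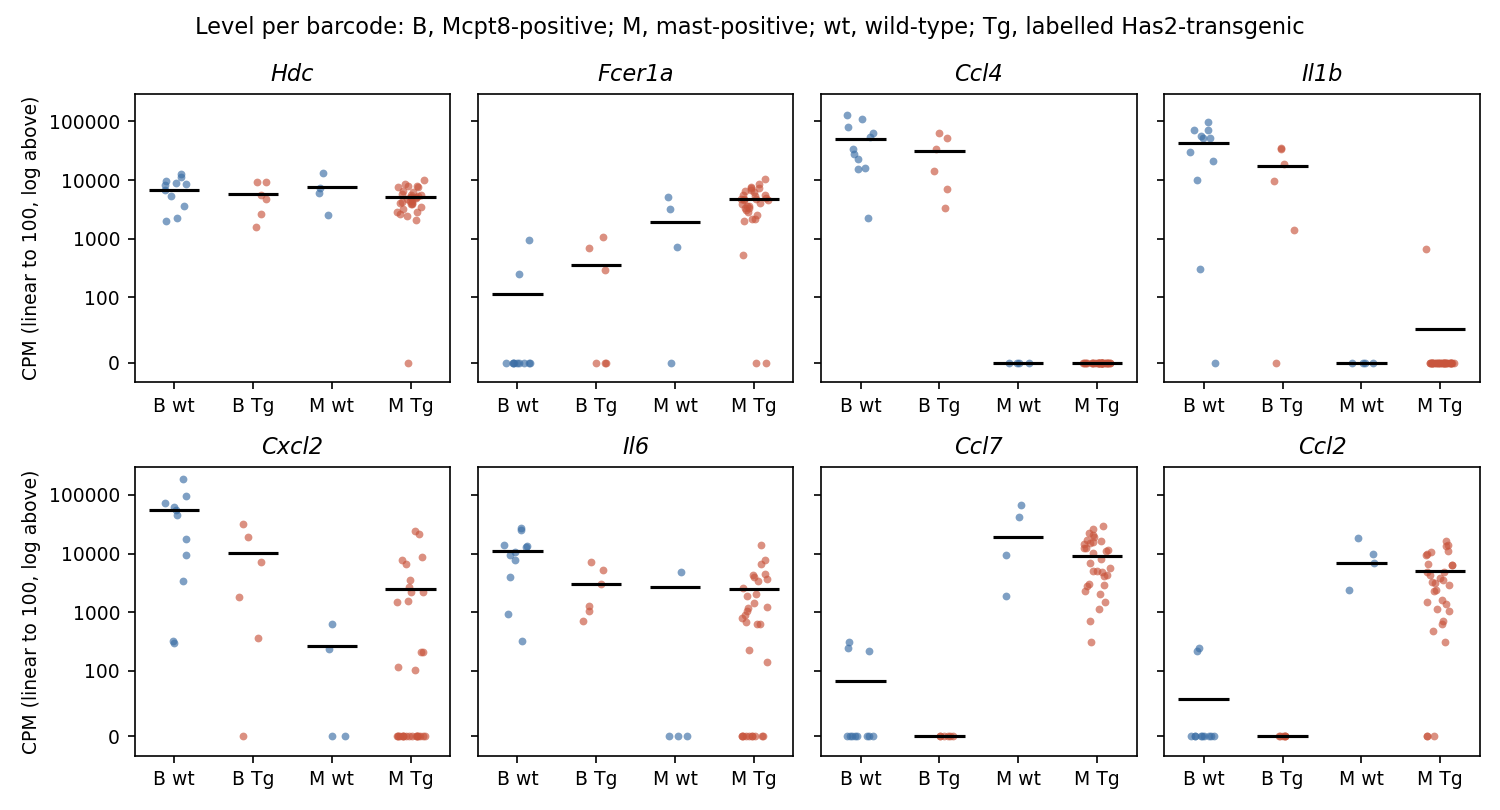
CPM per barcode (linear to 100, logarithmic above) of 8 genes in Mcpt8-positive (B) and mast-positive (M) members of the wild-type library and the library labelled Has2-transgenic; each point is 1 barcode and the line is the level of the summed UMIs. Cxcl2 in Mcpt8-positive members had a median of 45572 CPM in wild-type and 4500 CPM in the other library, with overlapping barcodes.

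In Mcpt8-positive members Cxcl2, Il6 and Il1b were more than 2-fold lower in the library labelled Has2-transgenic, and Ccl3 and Ccl4 less so. Of 419 genes with at least 20 UMIs, 16.7% were at least 2-fold higher and 12.4% at least 2-fold lower there, again without a test. Of 8 measured cytokines 4 were past the fold downward (Il6, Il1b, Csf2 and Areg) and 1 upward (Csf1), with a median log2 ratio of -0.98 against 0.16 over all genes measured. Of 5 measured chemokines 1, Cxcl2, was past the fold downward and 0 upward, with a median of -0.72; Ccl9 had a ratio of 0.920 (0.709 to 1.18). The 8 measured genes of NF-kB feedback had 0 past the fold either way, with Ier3 at 7317 and 6733 CPM. Other cell types, thinned to 1000 UMIs, gave mixed results. Il6 had a UMI in 72.3% (wild-type) and 39.5% of barcodes with Pdgfra. Cxcl2 had one in 71.2% and 58.7% of these and in 88.1% and 77.9% with Csf1r. For Il1b with Csf1r it was 41.7% and 33.4%, and Il6 was level (1.67% and 1.65%). With Csf3r, Cxcl2 (94.9% and 97.2%) and Il1b (76.3% and 85.4%) were higher in the other library. Whether the shift is specific to Mcpt8-positive cells was not tested.

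Cxcl2, a neutrophil chemoattractant, was the most abundant transcript of wild-type Mcpt8-positive cells. It had UMIs in 11 of 11 wild-type cells (lowest 302, median 45572, highest 189333 CPM) and in 5 of 6 cells of the other library (lowest 0, median 4500, highest 32449 CPM). The cells' ranges overlapped. The summed levels were 54456 and 10070 CPM, a ratio of 0.185 (0.157 to 0.216).

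Il6, encoding interleukin-6, showed the same order with UMIs in every cell. Wild-type cells ran from 321 through a median of 10568 to 27646 CPM, and the 6 others from 724 through 2138 to 7238 CPM. The summed levels were 10948 and 3044 CPM, a ratio of 0.278 (0.204 to 0.372), and the ranges overlapped.

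Il1b had 43196 and 17154 CPM (0.397, 0.349 to 0.450). Ccl3 was at 33865 and 17505 CPM (0.517, 0.454 to 0.587), and Ccl4 at 51137 and 31029 CPM (0.607, 0.550 to 0.669). Together Cxcl2, Ccl3, Ccl4 and Il1b made up 18.3% of all UMIs of the wild-type Mcpt8-positive cells and 7.58% in the other library; single cells ran from 0.482% to 36.2% in wild-type and from 3.40% to 11.8% in the other. The wild-type cells therefore held both the lowest and the highest shares. In mast-positive cells the same 4 genes were 0.0271% and 0.315% of UMIs.

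The order was the same with the Mcpt8-type barcodes that carried the exclusion genes added to the members. This added 1 barcode in the library labelled Has2-transgenic, where the UMIs of Cxcl2 (172), Il1b (293), Ccl3 (299) and Ccl4 (530) did not change. Their levels there fell through the larger total alone. Cxcl2 was then at 35344 CPM in wild-type and 5695 CPM in the other library. With them, 21 against 7 barcodes gave ratios of 0.161 (0.138 to 0.188) for Cxcl2, 0.210 (0.157 to 0.274) for Il6, 0.357 (0.316 to 0.402) for Il1b, 0.455 (0.403 to 0.513) for Ccl3 and 0.570 (0.520 to 0.624) for Ccl4. The iron store Fth1 did not behave alike: its ratio was 0.378 (0.301 to 0.471) in the members and 1.01 (0.873 to 1.16) with the further barcodes. Its UMIs in the library labelled Has2-transgenic went from 96 to 241 through the 1 added barcode. Among the added wild-type barcodes 1 held 39602 UMIs, where wild-type Mcpt8-positive members ran from 1163 to 4542. Wild-type Ccl2 went from 2 to 293 UMIs and Ccl7 from 3 to 107. The part of RNA from other cells in the added barcodes was not tested.

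Several other transcripts of these cells were near level between libraries. Between libraries Hdc had a ratio of 0.859 (0.672 to 1.09), Ifitm1 1.06 (0.919 to 1.22), Cd9 1.03 (0.765 to 1.38), Cd200r3 0.946 (0.418 to 2.01), Slc18a2 1.12 (0.784 to 1.57) and Acod1 1.22 (1.03 to 1.43).

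Prostaglandin synthesis was represented by Ptgs2, encoding cyclooxygenase-2. It had 85 UMIs in 7 of 11 wild-type cells (2411 CPM) and 0 UMIs in the 6 others, so it was at least 13.7-fold lower in the library labelled Has2-transgenic. Hmox1, heme oxygenase, had 48 UMIs in 5 cells and 1 UMI, a wild-type excess of 23.3-fold (3.98 to 937). Csf2, encoding GM-CSF, had 28 and 0 UMIs, but 27 of the 28 lay in 1 wild-type cell. The growth factor receptor gene Igf1r (53 and 8 UMIs, 0.312, 0.128 to 0.660), the Notch coactivator gene Maml2 (56 and 8, 0.295, 0.121 to 0.622), Satb1 (56 and 10, 0.369, 0.168 to 0.729), Fndc3a (59 and 12, 0.420) and the pleckstrin gene Plek (212 and 50, 0.487, 0.350 to 0.665) were the other genes spread over cells with the largest folds downward. Upward only 1 gene met the same conditions, Fau, which encodes a ribosomal fusion protein, at 1.25 (0.959 to 1.63).

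Most differences in immediate early genes rested on single cells. Of 9 measured, 4 were past the fold upward and 1 downward, but the 40 UMIs of Fos and the 20 of Jun in the library labelled Has2-transgenic all lay in 1 of its 6 cells, and Fosb (19 UMIs) lay in 1 cell and Dusp1 (20 UMIs) to 85% in 1 cell as well. Egr1, the gene past the fold downward, had 56 UMIs in 3 wild-type cells and 1 UMI in the other library, and its log2 ratio was -4.19 with all cells and -4.01 without the cell with most UMIs in each library. Leaving out the same cells, the log2 ratio of Fos went from 5.80 to 1.23 and that of Jun from 6.40 to 1.24. Ccl6 was similar, with a ratio of 1.62 (1.38 to 1.90) in which 1 cell held 72% of the transgenic-labelled UMIs, and its log2 ratio went from 0.70 to -0.33 without the highest cell of each library.

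In mast cells the granule genes were close to level between libraries once the deep wild-type cells were included. Of 1767 genes measured in mast-positive members, 16.1% were at least 2-fold above wild-type in the transgenic-labelled library and 26.9% at least 2-fold below, and of 2031 measured in mast cells by the larger sum, 14.1% and 10.6%. The chymase gene Mcpt4 was at 28571 and 45774 CPM in mast-positive cells (1.60, 1.40 to 1.84) and at 42033 and 46272 CPM by the larger sum (1.10, 1.05 to 1.16). Cpa3 had a ratio of 2.42 (1.89 to 3.17) in mast-positive cells and 1.04 (0.966 to 1.12) by the larger sum, Cma1 of 2.75 and 1.22, and Tpsb2 of 2.35 and 1.24. By the larger sum 0 of 8 measured proteases were past 2-fold in either direction. These 4 proteases filled 12.9% of UMIs in wild-type mast cells (4.77% to 16.7% per cell) and 15.0% in the others (1.98% to 20.9%), and 6.99% and 14.9% in mast-positive cells.

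Several receptors and mediators that mark mast cells were also near 1 by the larger sum. Fcer1a was at 3759 and 4829 CPM (1.28, 1.09 to 1.52), Kit at 570 and 673 CPM (1.18, 0.772 to 1.88), Hdc at 5604 and 5100 CPM (0.910, 0.793 to 1.05) and Srgn at 10138 and 10000 CPM (0.986, 0.891 to 1.09). Tph1 was somewhat higher in the library labelled Has2-transgenic, at 1435 and 2146 CPM (1.49, 1.15 to 1.97). The interleukin-33 receptor gene Il1rl1 was at 1731 and 1765 CPM (1.02, 0.797 to 1.32). Other receptors were not near 1. Of 7 measured growth factor and alarmin receptors 2 were past the fold downward and 0 upward, Csf2rb at 0.474 (0.384 to 0.588) and Il7r at 0.260 (0.141 to 0.487), and of 14 genes of IgE receptor signalling 3 upward (Btk, Vav1 and Orai1) and 0 downward. The peptide receptor gene Mrgprx1 had 0 UMIs in wild-type and 87 in the other library, at least 5.39-fold higher.

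Mast cell chemokines did not move together. Of 5 measured by the larger sum, 3 were past the fold upward in the library labelled Has2-transgenic (Cxcl2, Cxcl3 and Ccl3) and 2 downward (Ccl2 and Ccl7). Cxcl2 had 2 UMIs in the 7 wild-type cells and 581 UMIs in 15 of the 33 others, a ratio of 54.0 (14.9 to 447), and of 9.25 (2.55 to 76.6) in mast-positive cells, the opposite direction to Mcpt8-positive cells. Of those 581 UMIs, 8 cells held 90%. Most mast cells of both libraries thus had 0 UMIs of Cxcl2, and the difference lies in a minority of cells.

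Ccl7 and Ccl2 were present in nearly every mast cell. The 4 wild-type mast-positive cells had 8, 11, 21 and 104 UMIs of Ccl7 and the 3 wild-type cells with both kinds of protease had 67, 96 and 635, while the 33 others ran from 313 through a median of 6838 to 29216 CPM. The summed level was 21461 and 8942 CPM, a ratio of 0.417 (0.386 to 0.450), but 1 wild-type cell held 67% of the library's mast cell UMIs and the ranges overlapped. Ccl2 had 12439 and 4985 CPM (0.401, 0.362 to 0.444), with 83% of the wild-type UMIs in the same cell. In mast-positive cells the log2 ratio of Ccl7 was -1.11 and became 0.30 without the highest cell of each library, and that of Ccl2 went from -0.50 to 0.16. Ccl2 and Ccl7 were found together in 29 of the 32 mast-positive cells of the library labelled Has2-transgenic.

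Several genes of oxidative stress were higher in mast cells of the library labelled Has2-transgenic. Of 9 measured genes of the oxidative stress list, 4 were past the fold upward by the larger sum (Hmox1, Gclc, Gclm and Sqstm1) and 1 downward (Mt1), with a median log2 ratio of 0.83 against -0.03 over all genes measured. Sqstm1, encoding the autophagy receptor p62, had UMIs in 6 of 7 wild-type cells (lowest 0, median 1727, highest 2650 CPM) and 33 of 33 others (520, 4780 and 16378 CPM). Most of the latter thus lay above every wild-type cell, and the ratio was 3.21 (2.53 to 4.11). Alox5ap, which presents arachidonic acid for leukotriene synthesis, had 0 UMIs in the 7 wild-type cells and 123 in 23 of the 33 others, at least 7.62-fold higher (at least 1.31-fold in mast-positive cells). The eicosanoid list as a whole had 5 measured genes, 1 past the fold each way, with Hpgds downward at 0.451 (0.267 to 0.790). Mt1, a metallothionein that binds zinc, was at 1481 and 254 CPM (0.171, 0.119 to 0.247).

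Genes known to respond to tissue handling also differed in the same cells. Of 9 measured genes of the immediate early list, 6 were past the fold upward by the larger sum (Jun, Atf3, Hspa1a, Hspa1b, Dusp1 and Nr4a1) and 1 downward (Fosb), with a median log2 ratio of 1.48. In mast-positive cells 0 were past it upward and 3 downward, with a median of -0.30, while the oxidative stress list had 4 upward and 1 downward and a median of 0.45. Jun, a subunit of the AP-1 transcription factor, had a ratio of 4.35 (2.25 to 9.66) by the larger sum and 0.933 (0.445 to 2.35) in mast-positive cells. The part of handling in the stress genes was not tested.

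The sizes differed with the barcodes counted. With the barcodes of the exclusion genes, 9 against 38 mast cells gave 2.97 (2.44 to 3.65) for Sqstm1 and 16.1 (4.36 to 133.8) for Alox5ap, but 1.38 (1.04 to 1.85) for Hmox1 and 0.303 (0.232 to 0.397) for Mt1. Apoe was at 775 and 2501 CPM in mast cells by the larger sum, 3.23 (2.28 to 4.71), while the macrophage-type barcodes also carried more of the macrophage list in that library (10148 and 20512 CPM). The part of RNA from other cells in these values was not tested. Hbegf, an epidermal growth factor family ligand, had 0 and 180 UMIs in mast-positive cells but 775 and 779 CPM by the larger sum.

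Il4, which encodes interleukin-4, was concentrated in a few barcodes of both libraries, and the members among them differed in subclass. Its 603 wild-type UMIs lay in 45 barcodes and its 715 in the other library in 47, and 7 barcodes in each had at least 10 UMIs and held 84.9% and 90.8% of the total. In the library labelled Has2-transgenic 4 of the 7 were mast-positive (273, 142, 96 and 24 UMIs, 74.8% of the library's Il4), 2 were mast cells left out for an exclusion gene (48 and 26) and 1 was Mcpt8-positive (40). In wild-type 2 were Mcpt8-positive (67 and 42 UMIs, 18.1%), 2 were Mcpt8-type left out for an exclusion gene (45 and 33), and 0 were mast-positive. The 3 others, with 133, 107 and 85 UMIs or 53.9% of wild-type Il4, were outside the rule.

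Those 3 barcodes had 0 UMIs of Mcpt8, Mcpt4, Cpa3 and the CD3 chains of T cells. The rule gene Gata2 had 2, 5 and 0 UMIs in them, and Cd200r3 of the basophil list had 5, 0 and 3. They did carry 352, 109 and 105 UMIs of Ccl3, 44, 51 and 24 of Ifitm1 and 14, 12 and 8 of Cd9, and 2 of the 3 had Hdc (31 and 20 UMIs). Ccl3, Ifitm1 and Cd9 were higher in Mcpt8-positive than in mast-positive members, and Hdc was not, but the 3 barcodes were chosen here by their Il4 and are given no cell type.

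**Figure D4:**
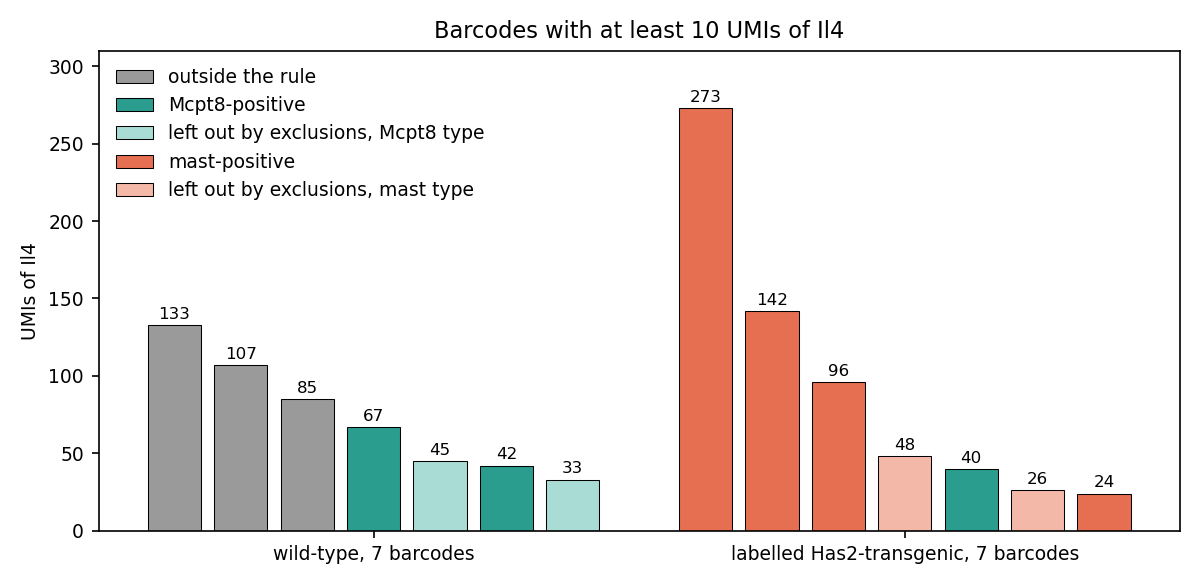
UMIs of Il4 (vertical axis) in every barcode with at least 10 of them, 7 in each library, by whether the barcode was Mcpt8-positive, mast-positive, left out by an exclusion gene or outside the rule. The 4 mast-positive barcodes (24 to 273 UMIs) all come from the library labelled Has2-transgenic, and those outside the rule (3 barcodes, 85 to 133 UMIs) from wild-type.

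Within members, Il4 was at 3829 and 2517 CPM in Mcpt8-positive cells (0.657, 0.455 to 0.933), where 2 of 6 transgenic-labelled cells had any and 1 held 93%. In mast cells by the larger sum it was at 319 and 2366 CPM (7.42, 4.38 to 13.7), with 3 cells holding 91.4% of the UMIs of mast-positive cells. Without the cell high in S100a8, Il4 in the other mast-positive cells of that library was 1336 CPM against 2411 CPM with it. Il13, its neighbour gene, was more concentrated still, with 62.6% of 107 UMIs in 1 cell. Il6 and Il4 occurred together in 15 of 32 mast-positive cells, and Il4 and Cxcl2 in 7.

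Some transcripts of the lesion lay almost entirely in these rare cells. Members were 0.107% and 0.271% of kept barcodes but held 68.4% and 90.0% of Fcer1a UMIs, 79.9% and 84.8% of Tpsab1 and 79.5% and 86.5% of Mrgprb1. The rule genes Ms4a2 (80.0% and 95.8%), Mcpt4 (71.7% and 91.6%) and Mcpt8 (54.0% and 72.4%) are high by choice. For Il4 the share was 24.7% (21.3 to 28.4) in wild-type and 84.2% (81.3 to 86.8) in the other library, and for Il13 13.6% and 76.2%. The wild-type Il4 share leaves out the 53.9% held by the 3 barcodes outside the rule. Slc18a2 was at 29.9% and 75.3%, and Cd200r3 at 33.7% and 78.9%.

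**Figure D5:**
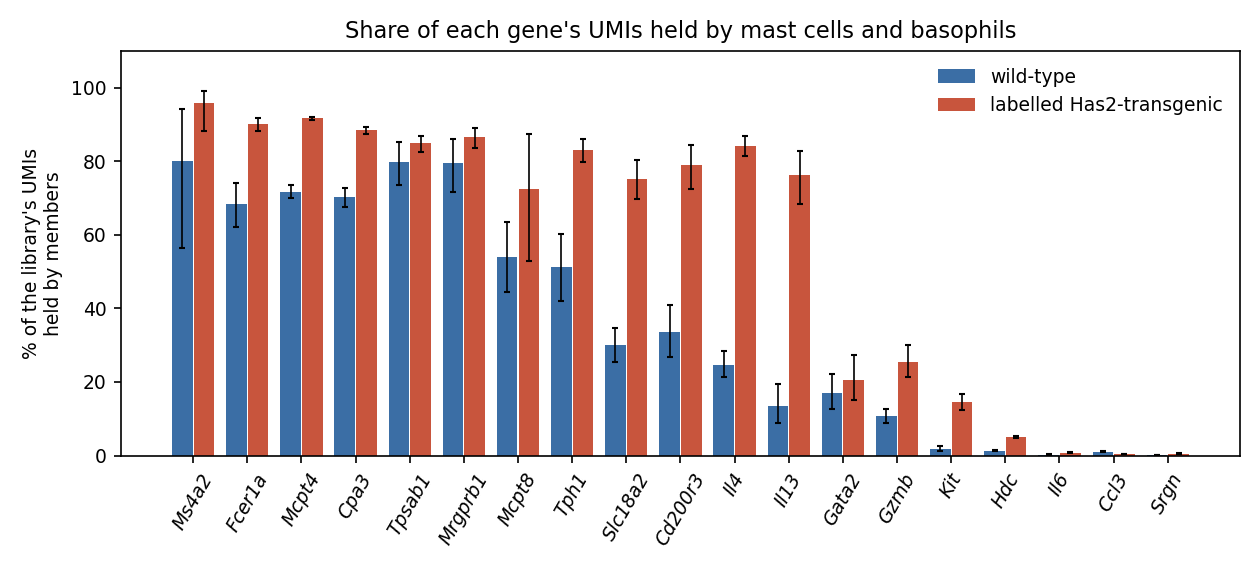
Percentage of each library's UMIs of a gene that members held (vertical axis, %), with exact 95% binomial intervals, for the wild-type library and the library labelled Has2-transgenic. The rule genes Ms4a2, Mcpt4, Cpa3, Mcpt8 and Gata2 chose the members; Fcer1a was 68.4% and 90.0%, and Il4 24.7% and 84.2%.

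The chemokines and cytokines that were most abundant per cell were a small part of the tissue's total. Members held 0.840% and 0.413% of Ccl4 UMIs, 1.06% and 0.418% of Ccl3, 0.537% and 0.159% of Il1b, 0.284% and 0.804% of Il6 and 0.124% and 0.0604% of Cxcl2. For Hdc the share was 1.34% and 5.12%. For Hdc, Ccl3, Ccl4, Il1b and Il6 the share in wild-type exceeded the members' share of barcodes, and for Cxcl2 it was close to it. In the other library Hdc, Ccl3, Ccl4 and Il6 exceeded it, while Il1b and Cxcl2 lay below it.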

How the data were processed

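Single-cell UMI counts per gene and barcode were used as the authors deposited them, in filtered matrices of 1 wild-type library and 1 library labelled Has2-transgenic. Per the submitters' processing notes, Cell Ranger 9.0.1 and the build GRCm39 were used; a correction for free RNA or doublets is not given in the sources used here. The molecule label differs between the libraries (total RNA for wild-type, polyA RNA otherwise) under 1 protocol.

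Barcodes were kept from 200 genes upward and up to 15% mitochondrial UMIs. UMIs were summed per subclass and library and given as CPM. Intervals (95%) are exact Poisson for levels, exact conditional binomial for ratios and exact binomial (Clopper-Pearson) for shares. A group at 0 UMIs was set to 3 counts per group for lower bounds ("at least"). Genes with at least 20 UMIs in a comparison were called measured. Folds of 2 between libraries and 4 in both libraries between subclasses were counted. These counts and the medians of log2 ratios used 0.5 added counts. The plan asked for 10 cells per subclass and library; no subclass reached it in both libraries, and 4 was used after the data were seen. Cells are not replicates, so no count model was fitted.

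Named genes were the rule genes and cell markers, the highest and most changed members of 17 lists (proteases, amines, heparin, IgE receptor, growth factor receptors, G protein-coupled receptors, surface genes, transcription factors, cytokines, chemokines, eicosanoids, hyaluronan, interferon, NF-kB, oxidative stress, immediate early, cell cycle), and, with at least 50 UMIs, up to 6 genes per direction between libraries (at least 100 CPM, 5 cells, at most 25% of UMIs in 1 cell) and up to 10 between subclasses. The barcodes with most Il4 and the cell high in S100a8 were singled out after their values were seen. The members and all lists were chosen with earlier results of these data known. Alternatives changed the cell limits, the rule, the subclass definition, the scaling, the depth (1000 UMIs per cell) and the doublet treatment. Doublets stayed in the main values. Scrublet marked 236 wild-type barcodes and 0 in the other library, so its calls were not used and an alternative removed the highest scores. That alternative removed 0 wild-type members and 3 of the library labelled Has2-transgenic, 2 of them Mcpt8-positive. It was applied to shares and to counts of genes past a fold, not to ratios of single genes. Python 3.11.15, numpy 2.4.6, scipy 1.17.1, pandas 2.3.3, scanpy 1.11.5 and matplotlib 3.10.9 were used, and the interval and fold computations were tested on simulated counts.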

Additional observations from a re-analysis of the deposited data

Results flagged for a closer look

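The transgenic-labelled over wild-type ratio of shares was 9.34 (3.31 to 36.4) for mast-positive members and 0.637 for Mcpt8-positive members, whose interval of 0.193 to 1.88 includes no difference. Cxcl2 went opposite ways, with ratios of 0.185 in Mcpt8-positive and 9.25 in mast-positive members. Neither difference between subclasses was tested, since each genotype had 1 library.

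Barcodes outside the members carried the same genes. The exclusion genes left out 13 wild-type barcodes and 6 in the library labelled Has2-transgenic that otherwise met the rule, and 3 wild-type barcodes outside the rule held 53.9% of that library's Il4 UMIs.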

How the results depend on the processing

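No paired analysis was possible because each genotype had 1 library and the replicate numbers 1 and 2 stand for different genotypes. The share ratios of members, Mcpt8-positive and mast-positive members stayed within their counting intervals under every cell limit, rule and doublet setting tried, including those added after seeing the data (Pecam1 allowed, at least 1000 UMIs per member). Cxcl2, Il6, Il1b, Ccl3 and Ccl4 stayed lower in Mcpt8-positive members of the library labelled Has2-transgenic in the 4 settings that changed their cells, weights or totals, with log2 ratios from -2.81 to -2.29 for Cxcl2. The doublet setting was not run for these ratios.

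Of 22 genes followed in mast-positive members 9 changed sign in at least 1 setting, and of 23 in Mcpt8-positive members 4 (Ccl6, Ccl9, Ifitm1 and Srgn). The log2 ratio of Ccl7 (-1.11) became 0.30 without the cell with most UMIs in each library. That of Il13 (1.19) became -1.13 when cells were averaged with equal weight and -0.10 without the member high in S100a8. That of Hbegf (3.52) became -0.0096 with subclasses by the larger sum (0.5 counts added, the ratio without them being 1.01). That of Tpsab1 (-0.83) ran from 0.15 to 1.79 in 3 settings and that of Il6 (-0.18) from 0.65 to 3.73 in 4, and Ccl2, Cd44, Ms4a2 and Srgn also changed sign. These causes were not tested.

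Counts of genes past a fold followed the UMI minimum. In Mcpt8-positive members, 70 higher and 52 lower genes became 1746 and 798 with at least 1 UMI and 18 and 16 with at least 50. In mast-positive members, 476 lower genes became 6741 with at least 1 UMI and 216 by the larger sum, and with at least 50 UMIs 132 were higher and 130 lower. Between subclasses, 105 higher and 306 lower genes became 61 and 158 with at least 50 UMIs. Changing the minimum changes which genes are measured.

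With 7385 UMIs in the 4 wild-type mast-positive cells, 0 UMIs of a gene allow up to 406 CPM there.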

Other observations

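The chemoattractant receptor genes Cxcr4 and C5ar1 had more UMIs per total in Mcpt8-positive members. Cxcr4, the receptor of CXCL12, had 15 UMIs in Mcpt8-positive and 0 in mast-positive members of wild-type, and 23 and 2 in the library labelled Has2-transgenic, a ratio there of 156 (38.6 to 1366). C5ar1, the receptor of complement C5a, had 17 and 0 UMIs in wild-type and 7 and 2 in the other library, a ratio there of 47.5 (9.04 to 469). In wild-type the 0 UMIs give bounds of only at least 1.05-fold for Cxcr4 and 1.19-fold for C5ar1, because the mast-positive cells held 7385 UMIs in all. Csf2rb and Csf2rb2, receptor subunit genes for interleukin-3 and GM-CSF, had ratios of 1.83 (1.05 to 3.44) and 1.05 (0.585 to 2.01) in wild-type and of 1.67 (1.16 to 2.36) and 0.892 (0.586 to 1.31) in the other library.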
